A study of Mus musculus with 4 samples.

Results

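Genes of the Wnt pathway were compared in mouse CAFs (cancer-associated fibroblasts, the connective tissue cells of a tumour) between libraries that the labels tie to resistant tumours and libraries that they tie to normal tumours. Members were taken from the raw count table by gene symbol alone: Wnt ligands with the secretion genes Porcn and Wls, Frizzled, Ror and Ryk receptors, R-spondins and Lgr receptors, secreted antagonists, beta-catenin and the TCF/LEF factors, feedback inhibitors and the Wisp genes. This gave 69 of the 23377 genes in the table. The rule itself uses no measured value, but it and the other gene lists were chosen with earlier results of these data known. Shares called in them are therefore descriptions. Polyadenylated RNA was sequenced in 2 libraries of the line or tumour titled RES4 (resistant) and in 2 libraries of the one titled WTA (normal), in a series on lactate secretion and resistance to drugs against MET and EGFR. Both groups carry the same cell type label. The labels give no mouse strain, age, treatment, sort or culture history, and they describe both a TruSeq and a SMART-seq2 library preparation without saying which was used for these libraries. The series calls the 2 libraries of a group biological replicates but does not say whether they came from separate tumours, animals or cultures. The p-values therefore reflect the spread among the 4 libraries and nothing wider.

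Wnt proteins are secreted, lipid-modified signals. Porcn attaches the lipid and Wls carries the protein to the cell surface. When a Wnt binds a Frizzled receptor with the co-receptor Lrp5 or Lrp6, beta-catenin (encoded by Ctnnb1) escapes destruction, enters the nucleus and activates genes together with TCF/LEF factors. Some ligands, Wnt5a above all, act mostly through Ror and Ryk receptors without beta-catenin. The pathway is restrained outside the cell by Sfrp proteins, which bind Wnts, and by Dkk proteins, which bind the Lrp co-receptors, and inside the cell by feedback genes such as Axin2, Nkd1, Nkd2 and Znrf3. R-spondins strengthen it by binding Lgr receptors and removing Znrf3 and Rnf43 from the surface. In connective tissue the pathway is known for its part in fibroblast identity, hair follicle signalling and scarring.

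The 4 libraries held 2785936 to 5558541 reads in the table, and 0.216% to 0.245% of them fell on the members. Levels are given as CPM, counts scaled to a common library size with TMM factors (trimmed mean of M values). A count of 0 allows up to 3 counts, 0.540 to 1.08 CPM depending on the library. Fibroblast markers were abundant in both groups, at unequal levels. All 10 tested rose in the resistant libraries, although Col1a1 and Col1a2 had -0.19 and -0.057 on the log2 scale with loess offsets along abundance. For comparison with this and the next lists, 15.5% of all genes tested rose and 13.9% fell. Col1a1 missed the threshold with DESeq2 too (adjusted p = 0.0726), and leaving out either resistant library (adjusted p = 0.0781 and 0.128) or the second normal one (adjusted p = 0.177) had the same outcome, as did leaving out resistant replicate 2 for Col1a2 (adjusted p = 0.0704). The summed level of the list was 8622 and 8126 CPM in resistant against 3679 and 2997 CPM in normal replicates 1 and 2. Of 7 tested Schwann cell and neural crest markers, 6 fell in the resistant libraries and 1, Pmp22, rose (adjusted p = 0.215 and 0.346 without normal replicate 1 and 2). The sums were 247 and 269 CPM in resistant and 1385 and 1229 CPM in normal libraries, and Ngfr alone stood at 3.41 and 3.29 CPM against 491 and 461 CPM. Pericyte and smooth muscle markers split, with 2 higher and 2 lower of 7 tested, and summed to 330.3 and 436 against 849 and 717 CPM. Endothelial and epithelial lists had no tested member, with summed levels of at most 5.93 and 3.21 CPM, and Epcam, Cdh1 and the leukocyte gene Ptprc had no read. Macrophage genes summed to 17.1 and 18.3 against 7.16 and 7.21 CPM, with Lyz2 higher among 3 tested (adjusted p = 0.0543 without normal replicate 1). The melanocyte list summed to 41.0 and 27.4 against 29.9 and 35.1 CPM with neither of 2 tested genes called, and of the skeletal muscle list Cdh15 alone was tested and fell. The part of these marker differences in the results on Wnt genes was not tested, and in such bulk libraries fewer cells of a type and less RNA per cell cannot be told apart.

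The secreted antagonists Sfrp1, Sfrp2, Dkk2 and Dkk3 and the R-spondins Rspo2 and Rspo3 rose in resistant tumour CAFs. So did Wnt5a, Wls, Fzd1, Ror2, Lgr5, Tcf7l1 and Apcdd1. Fzd3, Lef1, Tcf7, Nkd2, Axin2, Lgr4, Lgr6, Wnt7a, Wnt9a and Wisp2 fell, and Ctnnb1 itself was not called. Of the 69 members, 39 passed the filter on low counts, 25 had reads but too few and 5 had none. Of the 39, 13 rose and 10 fell at an adjusted p under 0.05 in edgeR's quasi-likelihood test, which is 59.0% of those tested, against 29.4% of all 12001 genes tested (15.5% higher and 13.9% lower). Of the 23 called members, 12 lay above the filter in both groups and 11 in only 1 group. Sfrp2, Dkk2, Dkk3, Rspo2, Rspo3 and Lgr5 passed it in the resistant group only. Wnt7a, Wnt9a, Lgr6, Tcf7 and Axin2 passed it in the normal group only. These 11 could pass the filter only by being higher there, so the share is a description. The median log2 fold change of the 39 was 0.19, against -0.0036 for all genes, and was the same with Wnt7a and Axin2 at their bounds. In 31 of the 39 (79.5%) the levels of the 2 groups did not overlap; over all genes tested this share was 64.7%. Without normal replicate 2, 7 members rose and 7 fell, and without resistant replicate 1, 13 rose and 13 fell; a lone library is then assumed to vary like the other group.

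**Figure D1:**
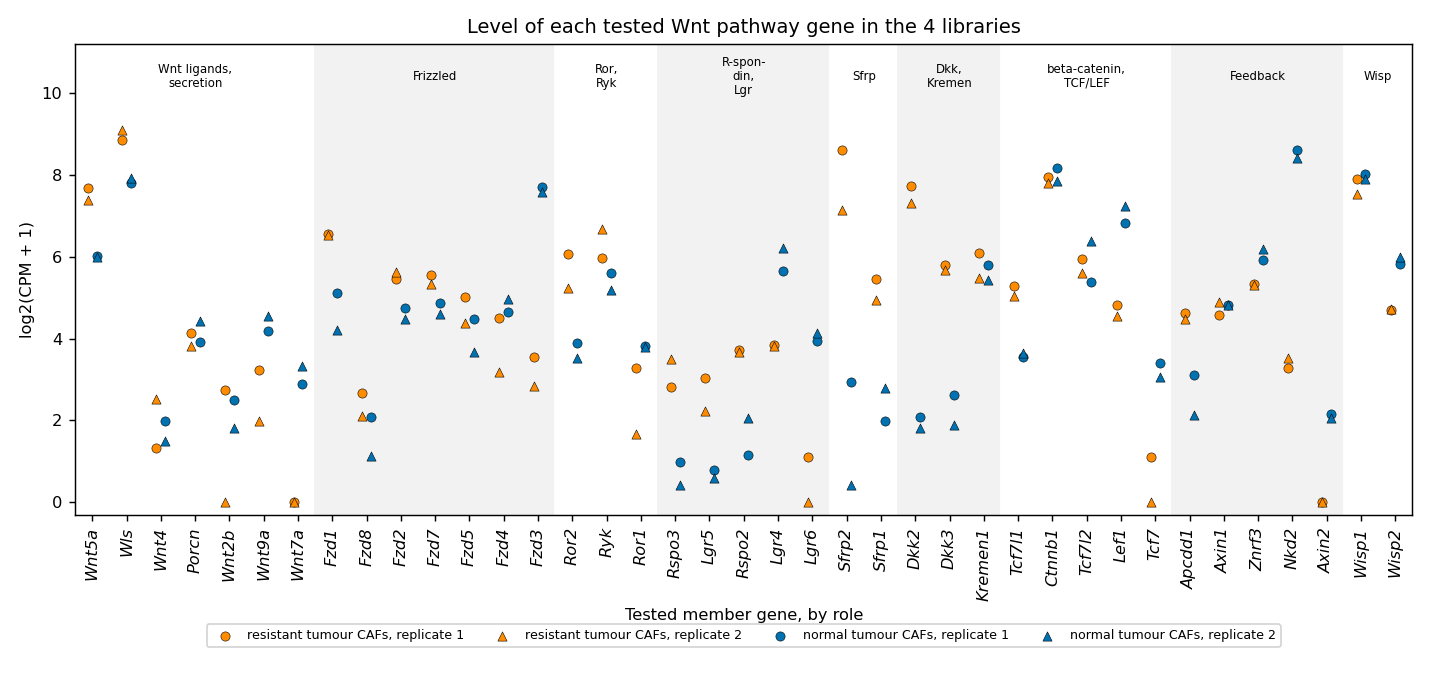
Level of the 39 tested Wnt pathway genes as log2(CPM + 1) (vertical axis), grouped by role along the horizontal axis; each point is 1 library, orange for resistant and blue for normal tumour CAFs, circles for replicate 1 and triangles for replicate 2. The orange points of Sfrp2, Dkk2 and Dkk3 lie far above the blue ones, those of Fzd3 and Nkd2 far below, and those of Ctnnb1 overlap with the blue.

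The secreted antagonists Sfrp2, Dkk2 and Dkk3 had the 3 largest increases among the tested members. Pairs of values are given in the order replicate 1, replicate 2. Sfrp2, a Wnt-binding protein made by fibroblasts, stood at 393 and 140.1 CPM in resistant and 6.67 and 0.336 CPM in normal libraries. Both resistant libraries lay above both normal ones by a wide margin, although the replicates of each group differed too. Its log2 fold change (resistant minus normal, ± SE) was 6.37 ± 0.82, adjusted p = 1.11e-04. Without normal replicate 1, in which most of the normal reads lay, the fitted value was 9.42, and without normal replicate 2 it was 5.26, with the call kept in both. Without resistant replicate 1 it was 5.47, without resistant replicate 2 6.98, and with limma-voom 7.26. Sfrp1, its close relative, rose from 2.96 and 5.87 CPM in normal to 43.2 and 30.0 CPM in resistant libraries (3.01 ± 0.50, adjusted p = 6.11e-04), with no overlap.

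Dkk2, which binds Lrp co-receptors, stood at 210.1 and 158 CPM in resistant and 3.21 and 2.52 CPM in normal libraries. It thus had 554 and 432 reads in the resistant libraries and 13 and 15 in the deeper normal ones. The log2 fold change was 6.01 ± 0.42, adjusted p = 3.19e-06, and it lay between 5.78 and 6.20 over all alternatives. Dkk3, a divergent relative that is not a classical Lrp antagonist, rose from 5.19 and 2.68 CPM to 55.0 and 49.8 CPM (3.76 ± 0.49, adjusted p = 1.13e-04). Kremen1, a receptor through which Dkk proteins can remove Lrp6, was at 67.5 and 43.5 CPM in resistant and 54.8 and 42.3 CPM in normal libraries, overlapping ranges that were not called (0.19 ± 0.38, adjusted p = 0.754). Per kilobase of exon, a scale on which genes can be compared, the summed level of the 10 Sfrp, Frzb, Wif1 and Dkk genes was 266 and 129.8 CPM per kb in resistant and 6.91 and 3.48 in normal libraries. Of the resistant sums, Sfrp2 accounted for 68.5 and 50.2% and Dkk2 for 21.3 and 32.9%. The 4 calls in this group, Sfrp1, Sfrp2, Dkk2 and Dkk3, held in all 13 alternatives, each left-out library included. They were 2 of 2 tested Sfrp genes and 2 of 3 tested Dkk and Kremen genes, against 29.4% of all genes called. Sfrp2, Dkk2 and Dkk3 lay above the low-count filter in the resistant group only. These could enter the test only by being higher there, so the count is a description.

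Among the ligands, Wnt5a, the main ligand of the beta-catenin-independent branch, rose. It stood at 204 and 168 CPM in resistant and 64.0 and 62.2 CPM in normal libraries, and the groups did not overlap. The log2 fold change was 1.56 ± 0.29, adjusted p = 0.00159. Without normal replicate 1 or 2 it hardly moved (1.51 and 1.50) but was not called (adjusted p = 0.0623 and 0.0773). Wls, the Wnt carrier, rose with it, from 222 and 243 CPM to 462 and 546 CPM (1.12 ± 0.23, adjusted p = 0.00302), and was not called without normal replicate 1 (adjusted p = 0.0602). Porcn, the enzyme that lipidates Wnts, was at 16.7 and 13.2 CPM in resistant and 14.1 and 20.6 CPM in normal libraries (-0.22 ± 0.44, adjusted p = 0.754), with overlapping ranges.

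Wnt7a and Wnt9a went the other way. Of the 7 tested ligand and secretion genes, 2 thus rose and 2 fell (57.1% called, against 29.4% of all genes). Wnt7a and Wnt9a lay above the low-count filter in the normal group only. Both could enter the test only by being higher there, so the count is a description. Wnt7a, a ligand best known from limb, nerve and muscle, went undetected in both resistant libraries and had 26 and 54 reads, or 6.42 and 9.06 CPM, in the normal ones. It was at least 14.3-fold lower in resistant libraries, computed against 3 counts over the group, with adjusted p = 6.27e-04. Wnt9a, a ligand known from joint development, fell from 17.0 and 22.5 CPM to 8.34 and 2.93 CPM (-1.81 ± 0.54, adjusted p = 0.0234). Without resistant replicate 1 the value was -2.74. Its call was lost without resistant replicate 2 (-1.25, adjusted p = 0.0917) and without normal replicate 2 (-1.64, adjusted p = 0.112). Wnt2b and Wnt4 were the other tested ligands, each with fewer than 6 CPM in every library and overlapping groups, and neither was called. Wnt2b had no read in resistant replicate 2 and was called lower without resistant replicate 1 (adjusted p = 0.0426). The make-up of the ligand pool was also read per kilobase of exon. Wnt5a made up 81.4 and 80.3% of the summed level of the 19 Wnt ligands in resistant and 44.2 and 40.8% in normal libraries, where Wnt9a held 27.7 and 34.6% and Wnt7a 11.0 and 14.6%. The shares carry no test of their own.

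Of 7 tested Frizzled receptors, 1 rose and 1 fell, a share called of 28.6% that was close to the 29.4% of all genes. Fzd3, the Frizzled known for axon guidance and planar polarity, stood at 10.6 and 6.22 CPM in resistant and 207 and 189 CPM in normal libraries. The normal libraries were about alike and far above both resistant ones. Its log2 fold change was -4.55 ± 0.39, adjusted p = 8.74e-06, and the call held in all 13 alternatives. Fzd1, a receptor of the beta-catenin branch, rose from 33.8 and 17.6 CPM to 93.3 and 91.8 CPM (1.85 ± 0.40, adjusted p = 0.00401); the normal replicates differed from each other, and without normal replicate 2 the value was 1.41, adjusted p = 0.205. Fzd2 and Fzd7, near relatives of Fzd1, also had higher values in both resistant libraries without passing the test. Fzd2 was at 42.9 and 48.7 CPM against 25.9 and 21.5 CPM (0.95 ± 0.39, adjusted p = 0.0871), and Fzd7 at 45.9 and 39.1 CPM against 28.2 and 23.2 CPM (0.73 ± 0.39, adjusted p = 0.189).

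Fzd4, a receptor for norrin as well as Wnts, was at 21.6 and 8.05 CPM in resistant and 24.2 and 30.2 CPM in normal libraries (-0.88 ± 0.50, adjusted p = 0.214). Resistant replicate 1 was close to the normal libraries and replicate 2 was far lower, and without replicate 1 Fzd4 was called lower (-1.75, adjusted p = 0.0238). Fzd5 (0.63 ± 0.46, adjusted p = 0.343) overlapped between groups, and Fzd8, the remaining tested Frizzled, had at most 5.31 CPM and was not called. Summed over the 10 Frizzled genes, the level per kilobase was 54.3 and 49.5 CPM per kb in resistant and 44.9 and 36.9 in normal libraries. Within that sum Fzd1 held 41.0 and 44.2% in resistant against 17.9 and 11.4% in normal libraries. Fzd3 held 1.53 and 0.981% against 36.0 and 40.0%, so that the leading Frizzled was Fzd1 in one group and Fzd3 in the other.

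**Figure D2:**
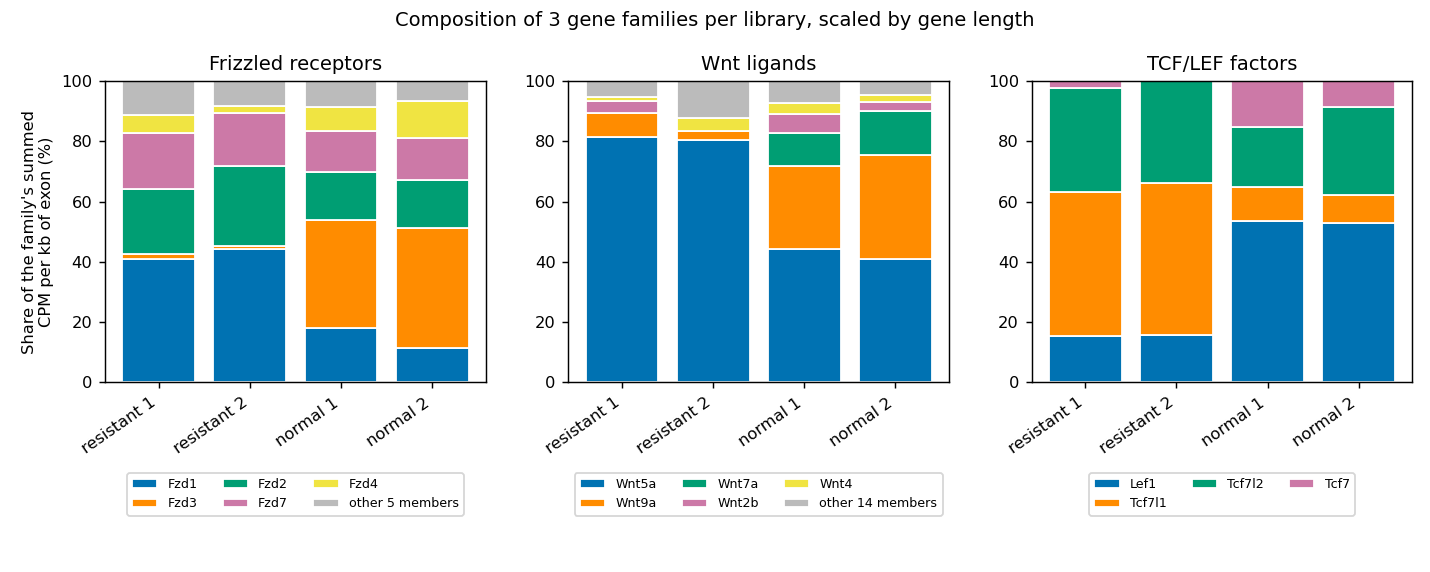
Share of each gene in the summed CPM per kb of exon of its family (vertical axis, %), for Frizzled receptors, Wnt ligands and TCF/LEF factors, with 1 stacked bar per library. Fzd1, Wnt5a and Tcf7l1 take the largest shares in both resistant libraries; Fzd3, Wnt5a and Lef1 do in both normal libraries.

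Ror2, a tyrosine kinase receptor for Wnt5a, rose together with its ligand. It stood at 66.4 and 36.6 CPM in resistant and 13.8 and 10.6 CPM in normal libraries, without overlap (2.08 ± 0.45, adjusted p = 0.00375). Without normal replicate 2 its value was 1.85, adjusted p = 0.0710. Ryk, a kinase-dead Wnt receptor, was at 61.4 and 102 CPM against 47.9 and 35.2 CPM (0.98 ± 0.38, adjusted p = 0.0757); it was called higher without resistant replicate 1 (adjusted p = 0.0129). Ror1, the relative of Ror2, was low, with 8.72 and 2.20 CPM in resistant and 13.1 and 12.9 CPM in normal libraries, and was not called (-1.25 ± 0.59, adjusted p = 0.134). It was called lower without the low-count filter (adjusted p = 0.0420) and without resistant replicate 1 (-2.54, adjusted p = 0.0199).

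Both tested R-spondins rose, while 2 of their 3 receptors fell and 1 rose. All 5 tested were thus called, against 29.4% of all genes. Rspo2, Rspo3 and Lgr5 lay above the low-count filter in the resistant group only, and Lgr6 in the normal group only. These could enter the test only by being higher there, so the count is a description. Rspo3, which strengthens Wnt signals and is made by many stromal cells, was at 6.07 and 10.2 CPM in resistant and 0.988 and 0.336 CPM in normal libraries (3.67 ± 0.70, adjusted p = 0.00164). Its value was 4.42 without normal replicate 1 and 2.97 without normal replicate 2. Rspo2 was at 12.1 and 11.7 CPM against 1.23 and 3.19 CPM (2.36 ± 0.56, adjusted p = 0.00701). Both R-spondins were low and had group ranges apart; Rspo2 was not called without normal replicate 1 (1.83, adjusted p = 0.119) and had 3.19 without normal replicate 2. Lgr4, the most widespread R-spondin receptor, fell from 49.6 and 73.7 CPM to 13.3 and 13.2 CPM (-2.22 ± 0.42, adjusted p = 0.00157). Lgr6 had 3 and 0 reads in the resistant and 58 and 98 reads in the normal libraries. Pooled over libraries, normal exceeded resistant 27.9-fold (95% counting interval 9.37 to 137), with adjusted p = 7.14e-04, and its fitted log2 fold change ran from -9.03 without resistant replicate 1 to -3.73 without replicate 2. Lgr5, a receptor known as a stem cell marker, rose instead, from 0.741 and 0.503 CPM to 7.21 and 3.66 CPM (3.10 ± 0.70, adjusted p = 0.00503). That rests on 3 and 3 reads in normal and 19 and 10 reads in resistant libraries, and the call was lost without resistant replicate 1 (adjusted p = 0.0700) and without normal replicate 2 (adjusted p = 0.105). Per kilobase, Lgr4 was the leading Lgr gene in all 4 libraries, with 72.2 and 86.3% of the family's level in resistant and 79.6 and 83.6% in normal libraries.

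Of the 4 TCF/LEF factors, which bind DNA and recruit beta-catenin, 2 fell and 1 rose, while beta-catenin did not pass the test. With Ctnnb1 counted, 60.0% of the 5 tested genes were called, against 29.4% of all genes. Tcf7 passed the low-count filter through the normal group only. Ctnnb1 was at 248 and 221 CPM in resistant and 286 and 228 CPM in normal libraries, overlapping ranges with a log2 fold change of -0.13 ± 0.25, adjusted p = 0.741. It was not called in any alternative. Lef1, a factor that mostly activates, fell from 112 and 149.6 CPM to 27.3 and 22.3 CPM (-2.40 ± 0.36, adjusted p = 3.18e-04), a call that held in all 13 alternatives. Tcf7, which encodes TCF1, had 3 and 0 reads in resistant and 39 and 44 in normal libraries. The pooled normal level was 14.8 times the resistant one (95% counting interval 4.91 to 73.4), with adjusted p = 0.00390; the fitted log2 fold change was -8.17 without resistant replicate 1 and -2.86 without replicate 2. Tcf7l1, which encodes TCF3, a factor that mostly represses, rose from 10.6 and 11.6 CPM to 37.9 and 31.8 CPM (1.65 ± 0.41, adjusted p = 0.00961). Its value was 1.52, adjusted p = 0.142 without normal replicate 1 and 1.67, adjusted p = 0.115 without normal replicate 2. Tcf7l2, which encodes TCF4, was at 61.1 and 47.6 CPM against 41.0 and 82.0 CPM, with the normal replicates on either side of the resistant ones (-0.18 ± 0.41, adjusted p = 0.784). Within the family, Lef1 held 15.4 and 15.8% of the level per kilobase in resistant and 53.6 and 53.0% in normal libraries, and Tcf7l1 47.9 and 50.5% against 11.4 and 9.18%.

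Of 5 tested feedback inhibitors, several of which are known to be switched on by beta-catenin, 2 fell and 1 rose (60.0% called, against 29.4% of all genes). Axin2 passed the low-count filter through the normal group only. Nkd1, Notum and Rnf43 had too few reads to be tested. They had 13 and 5, 1 and 5, and 2 and 0 reads in resistant libraries against 1 and 0, 0 and 1, and 0 and 0 in normal ones. Nkd2, which binds Dishevelled, stood at 8.72 and 10.6 CPM in resistant and 389 and 339 CPM in normal libraries. Per kilobase it was the most abundant feedback gene of the normal group (75.4 CPM per kb, against 8.32 for Znrf3, the next), and its log2 fold change was -5.23 ± 0.33, adjusted p = 1.97e-06, between -5.38 and -5.09 over all alternatives. Axin2, a scaffold of the destruction complex and a standard readout of beta-catenin activity, went undetected in both resistant libraries, with 14 and 19 reads in the normal ones (3.46 and 3.19 CPM). It was at least 5.90-fold lower, computed against 3 counts over the group, with adjusted p = 0.00375. It did not pass the low-count filter without either normal replicate, so no value was obtained there. Axin1, its constitutive relative, was at 22.8 and 28.9 CPM against 27.4 and 27.3 CPM (-0.084 ± 0.40, adjusted p = 0.901) with overlapping ranges. Znrf3, a ubiquitin ligase that removes Frizzled receptors, was lower in both resistant libraries, at 39.1 and 38.8 CPM against 59.5 and 71.8 CPM, without passing the test (-0.75 ± 0.36, adjusted p = 0.141). Apcdd1, a membrane inhibitor of Wnt signalling, was the one that rose, from 7.66 and 3.36 CPM to 23.5 and 21.2 CPM (2.05 ± 0.51, adjusted p = 0.00875). Without normal replicate 2 it was not called (1.50, adjusted p = 0.179), and without normal replicate 1 the value was 2.66.

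**Figure D3:**
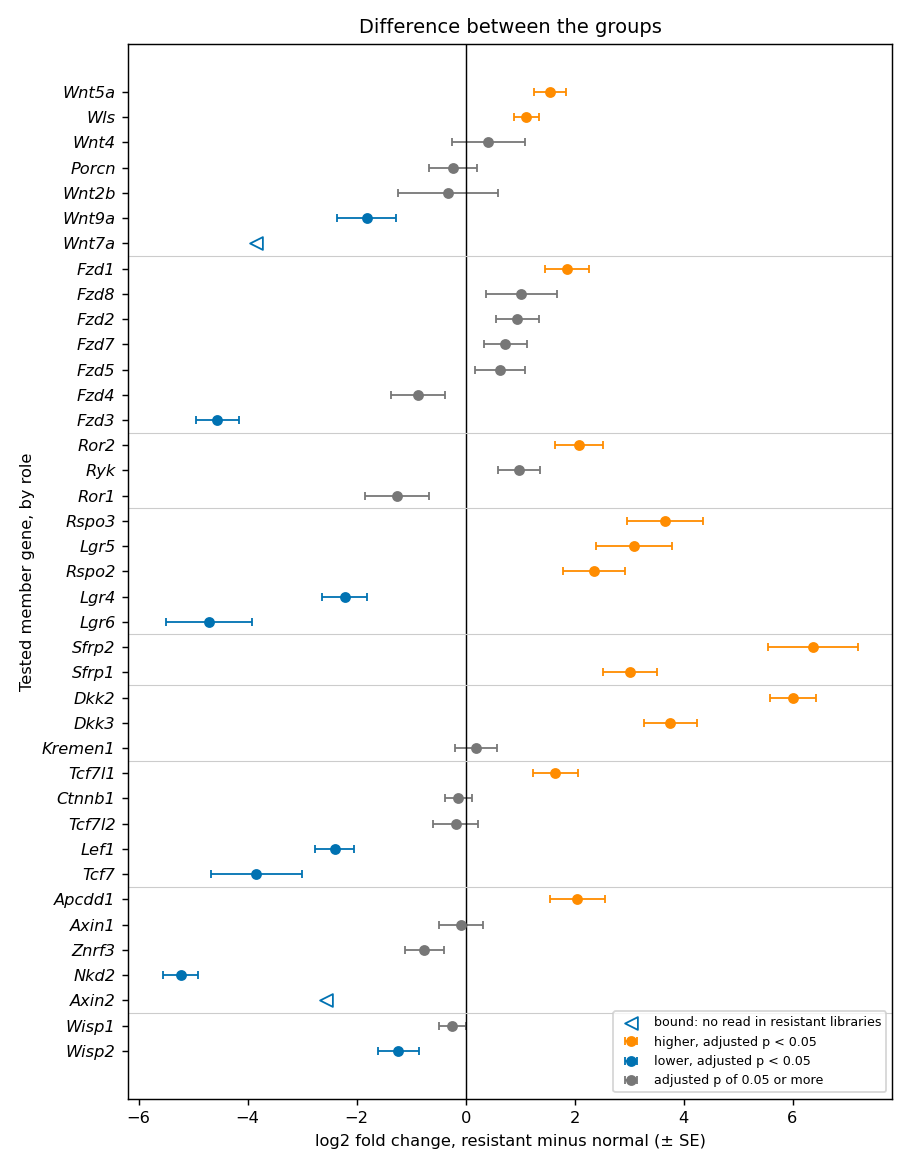
Log2 fold change of the 39 tested members (horizontal axis, resistant minus normal, bars ± SE), ordered by role, with called genes in colour; open triangles mark the least decrease of Wnt7a and Axin2, which had no read in the resistant libraries. The called antagonists and R-spondins lie to the right, with Sfrp2 at 6.37 and Dkk2 at 6.01, and Nkd2 and Fzd3 to the left at -5.23 and -4.55.

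Promoter windows, from 250 bases before to 50 bases after the annotated start, were taken from RefSeq (GRCm38.p6) and searched on both strands for spellings of the core that TCF/LEF factors bind. They are shown for 4 called members of 3 roles: the feedback genes Nkd2 and Axin2 and the factor Lef1, which fell, and the antagonist Dkk2, which rose. Capitals mark the 5 letters CTTTG, or CAAAG where the match is on the other strand.
Nkd2 (GRCm38.p6, chr13:73847582-73847881, minus strand): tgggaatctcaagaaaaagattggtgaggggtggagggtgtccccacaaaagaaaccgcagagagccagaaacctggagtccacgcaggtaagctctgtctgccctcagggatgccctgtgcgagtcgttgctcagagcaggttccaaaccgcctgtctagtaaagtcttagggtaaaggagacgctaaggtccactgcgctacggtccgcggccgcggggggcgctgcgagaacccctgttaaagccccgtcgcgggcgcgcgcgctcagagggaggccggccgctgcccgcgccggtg
Axin2 (GRCm38.p6, chr11:108920099-108920398, plus strand): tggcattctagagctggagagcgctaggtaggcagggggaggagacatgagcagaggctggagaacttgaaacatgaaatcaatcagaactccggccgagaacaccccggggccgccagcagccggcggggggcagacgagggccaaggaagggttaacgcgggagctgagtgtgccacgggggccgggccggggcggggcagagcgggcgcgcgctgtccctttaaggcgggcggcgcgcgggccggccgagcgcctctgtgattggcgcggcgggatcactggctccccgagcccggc
Lef1 (GRCm38.p6, chr3:131110047-131110346, plus strand): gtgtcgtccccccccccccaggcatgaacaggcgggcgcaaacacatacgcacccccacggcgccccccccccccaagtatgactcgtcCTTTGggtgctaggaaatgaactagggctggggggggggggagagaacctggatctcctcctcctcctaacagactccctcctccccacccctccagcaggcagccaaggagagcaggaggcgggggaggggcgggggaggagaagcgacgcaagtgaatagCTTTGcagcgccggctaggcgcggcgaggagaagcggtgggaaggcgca
Dkk2 (GRCm38.p6, chr3:132085042-132085341, plus strand): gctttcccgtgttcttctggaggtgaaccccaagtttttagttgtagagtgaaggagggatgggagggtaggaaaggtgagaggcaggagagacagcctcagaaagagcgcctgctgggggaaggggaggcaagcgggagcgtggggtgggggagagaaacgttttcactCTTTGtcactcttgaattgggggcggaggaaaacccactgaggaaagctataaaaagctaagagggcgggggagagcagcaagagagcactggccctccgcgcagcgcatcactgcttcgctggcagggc
The window of Lef1, the first of its 4 annotated starts, held 2 such matches and that of Dkk2 1, while those of Nkd2 and Axin2 held none. A match to CTTTG lay in 25 of the 56 windows found for 46 members and in 53.9% of all 32851 windows. The full core CTTTGAT, which contains CTTTG, lay in 2 member windows (3.57%), those of Wnt11 and Wnt5b, and in 3.73% of all windows. The spelling CTTTGAA lay in 1 member window and in 5.14% of all. These are matches of letters in a short window and not measured binding.

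The Wisp genes encode matricellular proteins of the CCN family, named for their induction by Wnt1. Wisp1 was abundant in both groups, at 237 and 184 CPM in resistant and 258 and 239 CPM in normal libraries, and was not called (-0.24 ± 0.25, adjusted p = 0.528). Wisp2 fell from 55.6 and 63.1 CPM to 25.0 and 25.2 CPM (-1.24 ± 0.38, adjusted p = 0.0262). The groups did not overlap, but with normal replicate 1 left out the value was -1.39, adjusted p = 0.135, and with normal replicate 2 left out -1.18, adjusted p = 0.253, neither of them a call. Wisp3 had at most 2 reads in a library and was not tested.

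Other genes of the pathway were read from 5 lists. Some of these genes, such as Ndp, Lrp4, Gpc3 and Celsr2, lay above the low-count filter in 1 group only. They could enter the test only by being higher there, so the shares called in these lists are descriptions. Of 17 tested co-receptors and surface modulators, 7 rose and 2 fell (52.9%, against 29.4% of all genes). Gpc3, a heparan sulphate proteoglycan that binds Wnts, rose by 5.87 ± 0.54 on the log2 scale, Sulf1, which trims heparan sulphate, by 2.74 ± 0.30, and Ptk7, a polarity co-receptor, by 2.06 ± 0.35. Lrp4, a co-receptor that binds several Wnt antagonists, fell (-3.69 ± 0.57). Ndp, which encodes the Fzd4 ligand norrin, was without reads in the resistant group, at least 16.6-fold lower. Gpc3 ran from 5.28 to 6.46 without normal replicate 2 or 1, and Lrp4 had -4.29 without resistant replicate 1. The destruction complex and Dishevelled genes had the smallest share of calls among the 5 lists, with 2 of 21 called (9.52%). Both rose: Apc2, a neural relative of Apc, by 4.20 ± 0.65 and the kinase gene Csnk1g1 by 1.04 ± 0.31. Apc2 had 5.65 and 3.32 without normal replicate 1 and 2, and Csnk1g1 was not called without normal replicate 1 or 2 (adjusted p = 0.281 and 0.304). Without resistant replicate 1, 2 genes of that list were called lower.

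Of 15 nuclear co-activators and co-repressors, 4 rose and 2 fell (40.0%, against 29.4% of all genes). The Groucho-type co-repressor genes split: Tle2 rose by 3.58 ± 0.49 and Tle4 by 2.94 ± 0.57, and Tle3 fell (-1.12 ± 0.29). Hbp1, which encodes a repressor of TCF target genes, rose by 1.53 ± 0.29, and Pygo1, a partner of the co-activator Bcl9, fell (-2.13 ± 0.61). Tle3 was not called without either single normal replicate (adjusted p = 0.202 and 0.152), Hbp1 without normal replicate 1 (adjusted p = 0.101), and Pygo1 without any single library (adjusted p = 0.0576 to 0.121) or with DESeq2 (adjusted p = 0.127). In the planar polarity and calcium branch, 4 of 26 tested genes rose and 6 fell (38.5% called, against 29.4% of all genes). Nfatc4, a calcium-regulated factor, rose by 2.97 ± 0.45, the polarity gene Prickle2 by 2.84 ± 0.44 and Ankrd6, which encodes Diversin, by 4.28 ± 0.65. Celsr2, a polarity cadherin, was without reads in the resistant group, at least 42.7-fold lower, and Nfatc2 (-2.41 ± 0.68) and the formin-related gene Daam2 (-1.69 ± 0.49) fell too. Nfatc2 was not called with DESeq2 (adjusted p = 0.0672), without resistant replicate 1 (-1.85, adjusted p = 0.110) or without normal replicate 1 (-1.98, adjusted p = 0.174), and had -3.36 without resistant replicate 2. Daam2 was not called without normal replicate 2 (-1.71, adjusted p = 0.0543) and had -2.57 without resistant replicate 1, where Ankrd6 had 3.62. In the branch 3 genes fell without normal replicate 1, 3 without normal replicate 2 and 2 with DESeq2, where 4 rose.

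Genes reported elsewhere as TCF targets moved in both directions, with 5 higher and 4 lower of 15 tested (60.0%, against 29.4% of all genes). Myc, a growth regulator with many inputs, rose from 95.3 and 110.4 CPM to 423 and 434 CPM (2.06 ± 0.25, adjusted p = 6.93e-05). The transcription factor genes Twist1 and Sox9 rose by 5.03 ± 0.60 and 2.40 ± 0.46. L1cam and Nrcam, neural adhesion molecules, fell (-3.04 ± 0.38 and -3.04 ± 0.47), as did Tnfrsf19, a receptor also known as Troy (-3.99 ± 0.69). L1cam stood at 159 and 143 CPM in normal and 22.8 and 13.9 CPM in resistant libraries. Without resistant replicate 1, Sox9 had 1.60 and Tnfrsf19 -4.96, and Twist1 ran from 4.33 to 5.80 without normal replicate 2 or 1. The median log2 fold change of the list was 0.11. Over the 5 lists together, 22 of 94 tested genes rose and 14 fell, 38.3% against 29.4% of all genes.

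**Figure D4:**
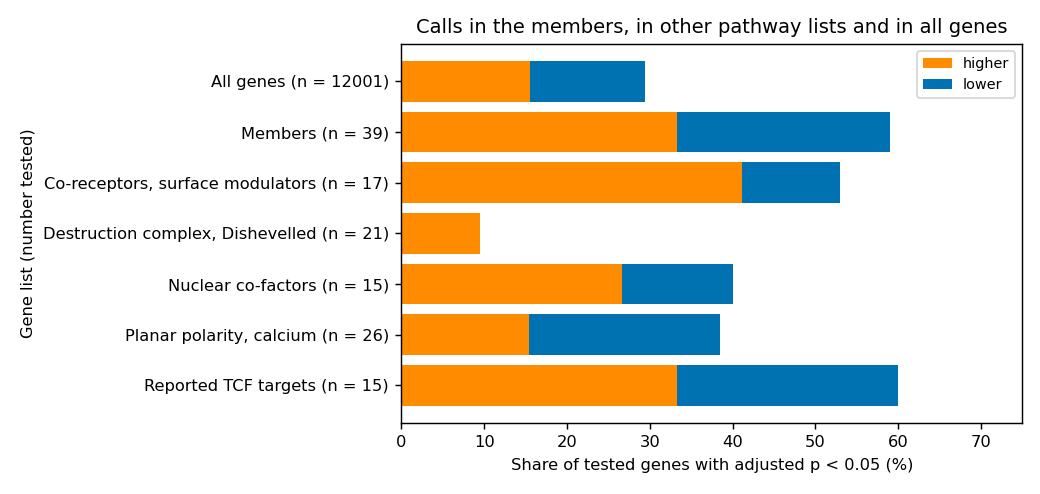
Share of tested genes with an adjusted p under 0.05 (horizontal axis, %), split into higher (orange) and lower (blue) in resistant tumour CAFs, for all genes, the members and 5 other pathway lists. The destruction complex and Dishevelled list has the lowest share (9.52%), below that of all genes (29.4%), and the reported TCF targets and the members have the highest (60.0% and 59.0%).

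The authors' deposited table lists 60 of the members and calls 4 upregulated (Dkk2, Dkk3, Sfrp1 and Sfrp2) and 6 downregulated (Fzd3, Lef1, Lgr4, Lgr6, Nkd2 and Wnt7a). Over all genes it calls 776 upregulated and 574 downregulated. In the authors' deposited table, called genes differ by 2 or more on the log2 scale, with an adjusted p below 0.1. All 10 members that the authors called were called here in the same direction. A further 13 members were called here only, 6 of them with an absolute log2 fold change under 2 in the authors' deposited table. The authors' test statistic was 0.29 for Wls (log2 fold change 1.09, SE 0.30) and 0 for Znrf3 (-0.79, SE 0.39). Their p-values thus do not test against a change of 0, as those here do, and the calls come from unlike tests. Reads of overlapping antisense transcripts can add to a gene where strand is not used, and the use of strand is not given in the sources used here. In a GRCm38 annotation, exons of the called members Axin2, Lef1, Rspo3, Sfrp2, Tcf7l1 and Wnt5a overlap such transcripts, and those of Ctnnb1 overlap Ulk4.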

How the data were processed

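Polyadenylated RNA was sequenced in 4 libraries. The count table holds read counts per gene symbol as deposited by the authors. Per the submitters' processing notes bcl2fastq 2, TopHat2 2.1.1, Picard 1.62, HTSeq 0.7.2, DESeq2 and the mm9 build were used; the sources used here do not give their roles or the gene annotation. A second table deposited by the authors holds normalized signal, counts divided by 1 size factor per library; it was only compared with the counts. The log2 fold changes, the score of the test statistic and the adjusted p-values of the comparison were deposited by the authors.

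The test was edgeR's (4.0.16, R 4.3.3): filterByExpr (minimum count 10) by group, TMM scaling, and a quasi-likelihood F test with the group as the only term, with Benjamini-Hochberg adjustment over all 12001 genes tested and a threshold of 0.05. Unless a tool, a left-out library or another alternative setting is named, an adjusted p is from that fit. Where one is named, the adjusted p is from that alternative's own fit, adjusted over the genes fitted there. The SE is the absolute log2 fold change divided by the square root of F. Where a group had no read, the fold is a bound that grants it 3 counts in all; with 1 to 3 reads, the ratio of pooled reads carries an exact 95% interval. Both use TMM-scaled library sizes and cover counting error alone, as the files give no molecular identifiers. Exonic lengths came from GENCODE M21 (GRCm38), matched by symbol for all 69 members, and served as lengths only. The procedure was tested on simulated data.

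The members and gene lists were chosen with earlier results of these data known. Named were all called members, other tested members with a mean of at least 10 CPM, up to 3 genes per direction with the smallest adjusted p in each other pathway list, and up to 3 of highest mean CPM in each marker list; others named were chosen after their values were seen. The 13 alternatives comprised other scalings (upper-quartile and relative log expression factors, plain library totals, loess offsets along abundance), other filters (none, or 50 reads or more in 2 libraries), other tools (DESeq2 1.42.0, limma-voom with limma 3.58.1), the replicate number as a block, and omission of 1 library at a time. Replicates differed beyond sampling noise (chi-square per degree of freedom of 18.2 and 11.9).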

Additional observations from a re-analysis of the deposited data

How the results depend on the processing

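Of the 23 called members, 13 kept their call in every alternative that gave a value, and the other 10 lost it only when a library was left out. Scaling by library totals shifted the median of all genes by -0.14 (log2) and left 1737 genes higher and 2156 lower, a share higher of 44.6% in place of 52.7%; it changed the call of no tested member. Leaving out 1 library gave 1078 to 2024 genes higher and 951 to 2323 lower over all genes, 7 to 13 members higher and 7 to 13 lower, and 18 to 25 higher and 8 to 21 lower in the other pathway lists. In those lists 8 genes fell with DESeq2 and 8 with at least 50 reads in 2 libraries, against 14. With loess offsets along abundance Col1a1 and Col1a2 had -0.19 and -0.057 in place of 0.66 and 0.81; the cause was not tested. With the replicate block, 15 members rose and 11 fell, as did 2257 and 2267 of all genes; Fzd2 and Ryk were then called higher (adjusted p = 0.0382 and 0.0254) and Ror1 lower (adjusted p = 0.0248). Same-numbered libraries share only a number, with a correlation of 0.217 between the replicate differences of the groups. At this depth the 30 members outside the test, with at most 15 reads in a library, could not show moderate differences.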

Other observations

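Of the 30 members outside the test, Dkk4, Wnt3a, Wnt6, Wnt8a and Wnt8b had no read in any library. The other 25 had 1 to 15 reads in their highest library. Without the filter on low counts edgeR's quasi-likelihood test called 2 of them, both higher in resistant tumour CAFs. Of all 17243 genes in that fit, 2163 were called higher and 2142 lower. Nkd1, the relative of Nkd2, had 13 and 5 reads in resistant and 1 and 0 in normal libraries, a ratio of 33.6 (95% counting interval 5.30 to 1398) with adjusted p = 0.00170, so the pair of Nkd genes moved in opposite directions. Wnt16, a ligand known from bone and joint, had 3 and 6 reads in resistant libraries and none in normal ones, at least 5.59-fold higher (adjusted p = 0.0219). Wnt10b, a ligand of the beta-catenin branch, had 7 and 8 reads in resistant and 8 and 9 in normal libraries. Dkk1, the best known Dkk antagonist, had 3 and 1 against 6 and 3 reads. Wif1, Frzb and Sfrp5 had at most 2 reads in a library, so Sfrp1 and Sfrp2 carried nearly all reads of the Wnt-binding antagonists in resistant tumour CAFs.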
